A study of Mus musculus with 2 samples.

Results

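The 10 genes described here carry glucose into the cell and break it down to pyruvate and lactate: the glucose transporter gene Slc2a1, the hexokinase genes Hk1 and Hk2, the genes Aldoa, Gapdh, Pgk1, Eno1 and Pkm of later steps, and the lactate dehydrogenase genes Ldha and Ldhb. They were chosen by symbol and matched by Ensembl identifier, and all 10 were found among the 43346 Ensembl genes of the tables. RNA came from the limbs of B6NCrl mouse embryos at embryonic day 14.5, with no treatment or engineered allele given. It was sequenced as total RNA in 2 libraries, biological replicates 1 and 2. By its label each sample is 1 pup's 4 limbs, yet its sex is labelled as pooled, and the samples share a donor identifier, a pup number and a pregnancy number but differ in the day of collection. The starting amount was 10 ng, of RNA over 200 nt, to which spike-in RNAs were added. With 1 group there are no conditions to compare, and no p-value is given: an exact sign-flip test over 2 libraries cannot give a p below 0.5.

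Glycolysis traps glucose by phosphorylation, splits the sugar in its upper steps and gains ATP and NADH in its lower steps. Lactate dehydrogenase then turns pyruvate into lactate and restores NAD+, which lets the pathway run where oxygen is short or where dividing cells draw on its intermediates. Most steps have several isozymes encoded by different genes, and some enzymes also come in splice forms. Embryonic limbs hold dividing mesenchyme, cartilage that has no blood vessels, forming muscle and skin.

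Depth was 34193161 expected counts for replicate 1 and 32879425 for replicate 2. All 8 limb genes set as markers, among them Tbx5 of the forelimb and Pitx1 of the hindlimb, stood at 1 TPM or more in both libraries (TPM is a transcript's abundance per length, scaled to a common total). The libraries were not alike in their makeup: 12 skeletal muscle markers summed to 3880 TPM in replicate 1 and 2627 TPM in replicate 2, and 11 of the 12 had a log2 ratio of replicate 1 over replicate 2 above 0.32. The 8 limb markers summed to 382.9 TPM in replicate 1 and 489.6 TPM in replicate 2. The 9 red blood cell markers summed to 26946 TPM in replicate 1 and 18277 TPM in replicate 2. Cartilage markers summed to 1154 and 1189 TPM and epidermis markers to 1454 and 1256 TPM, in the same order. The 5 fat markers summed to 13.96 TPM in replicate 1 and 8.42 TPM in replicate 2, with Fabp4 at 12.04 and 6.86 TPM, Pparg at 1.73 and 1.35 TPM, and Plin1 and Lep at 0 in both. The 5 neuron markers summed to 10.94 and 10.64 TPM and the 4 testis and sperm markers to 0.98 and 0.50 TPM. In bulk tissue, fewer cells of a type and less RNA per cell cannot be told apart, which holds for every level below.

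Together the 10 genes held 5448 TPM in replicate 1 and 5261 TPM in replicate 2 (5355 ± 132, SD, n = 2), or 0.560% and 0.529% of the counts. By gene TPM the order was Gapdh, Ldha, Eno1, Pkm, Aldoa, Pgk1, Ldhb, Slc2a1, Hk1 and Hk2, and no neighbours in it had ranges over the libraries that overlapped. Ranked by gene TPM, which counts a gene's noncoding transcripts as well, Gapdh stood at 51 among 21461 nuclear protein-coding genes and Hk2 tied for rank 7681.5. The genes of the lower steps and of lactate thus stood above those of uptake and phosphorylation in both libraries.

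**Figure D1:**
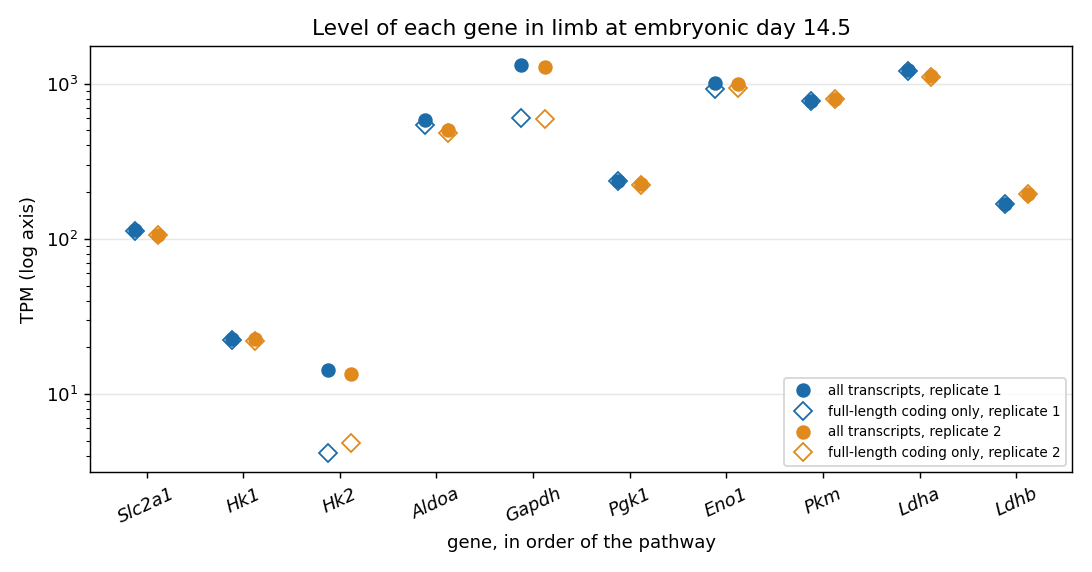
TPM of each of the 10 genes (log axis) in replicate 1 (blue) and replicate 2 (orange), with filled circles for all transcripts of a gene and open diamonds for its full-length coding transcripts alone. The symbols part at Gapdh, where 1298 TPM stand against 599 TPM on full-length transcripts, and at Hk2, where 13.9 TPM stand against 4.49 TPM.

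Uptake was represented most by Slc2a1, which encodes GLUT1, the transporter of basal glucose uptake (mm10, chromosome 4, 119108711 to 119137983, plus strand). It stood at 113.6 TPM in replicate 1 and at 106.1 in replicate 2 (109.8 ± 5.30, SD, n = 2), from 6528 and 5703 expected counts, and its transcript Slc2a1-201 held 99.4% and 99.8% of its TPM. Of 8 glucose transport genes, 7 reached 1 TPM in both libraries. Slc2a3, which encodes GLUT3, a transporter of high affinity for glucose, followed at 54.96 TPM in replicate 1 and at 60.4 in replicate 2, and Slc2a1 exceeded it by 0.93 ± 0.17 on the log2 scale (1.90-fold, SD, n = 2). Slc2a4, which encodes the insulin-responsive transporter GLUT4 of muscle and fat, stood at 14.7 TPM in replicate 1 and at 15.9 in replicate 2. Slc2a8, another gene of the transporter family, stood at 12.89 TPM in replicate 1 and at 15.77 in replicate 2. The liver and islet transporter gene Slc2a2 had 1 read in replicate 1 and was at 0 in replicate 2, and a library without a count could still hold up to 3. The sum of the transport list was 207 TPM in replicate 1 and 209 TPM in replicate 2.

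The hexokinases, which phosphorylate glucose on entry, were the lowest of the 10 genes. Hk1 (chromosome 10, 62268855 to 62379908, minus strand) encodes the broadly expressed isozyme and stood at 22.57 TPM in replicate 1 and at 22.54 in replicate 2. Hk2 (chromosome 6, 82725025 to 82774454, minus strand), the isozyme typical of insulin-sensitive tissues and of many tumours, stood at 14.3 TPM in replicate 1 and at 13.45 in replicate 2. Hk1 exceeded Hk2 in both libraries, by 0.70 ± 0.06 on the log2 scale (1.62-fold, SD, n = 2). The related genes Hk3 and Hkdc1 were near 1 TPM, with averages of 1.22 ± 0.0636 TPM and 1.36 ± 0.728 TPM (SD, n = 2).

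The level of Hk2 lay mostly on a short transcript. Hk2-202, which the reference annotation types as a processed transcript without a coding sequence, is 594 nt long, and all 594 bases lie in the untranslated part of the full-length Hk2-201 at the 3′ end of the gene (chromosome 6, 82725062 to 82726309). It took 10.15 TPM in replicate 1 and 8.63 TPM in replicate 2, or 70.9% and 64.2% of the gene's TPM, from 115.55 and 91.7 counts. Hk2-201, at 5513 nt, took 4.17 TPM in replicate 1 and 4.81 TPM in replicate 2 from 518 and 559 counts. The larger share of reads was thus on the coding transcript and the larger share of TPM on the short one. The 1 exon junction of Hk2-202 is in no full-length coding transcript. Reads inside the shared sequence match both transcripts, and their split is an estimate. Counted on full-length coding transcripts alone (protein-coding by type, with both ends of the coding sequence annotated), Hk1 exceeded Hk2 by 2.28 ± 0.15 on the log2 scale (4.84-fold, SD, n = 2). Hk1 itself was split between Hk1-202, with 65.1% of its TPM in replicate 1 and 67.4% in replicate 2, and Hk1-201, with 32.9% and 30.0%. Both code for hexokinase and start at different sites, and 3495 of the 3639 bases of Hk1-201 lie in exons of Hk1-202. Of the 20 Hk1 transcripts, 15 were listed at 0 in both libraries.

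In the upper steps, Aldoa was the member measured, and it encodes the aldolase that splits fructose bisphosphate in muscle and most embryonic tissues. Aldoa (chromosome 7, 126795234 to 126800751, minus strand) stood at 580 TPM in replicate 1 and at 505 in replicate 2 (542 ± 53.3, SD, n = 2), and its ratio of replicate 1 over replicate 2, 0.20 on the log2 scale, was the highest of the 10 genes. The brain isozyme gene Aldoc averaged 7.55 ± 1.68 TPM, so that Aldoa exceeded it by 6.16 ± 0.18 on the log2 scale (71.6-fold, SD, n = 2). Around it, the isomerase genes Gpi1 and Tpi1 averaged 189 ± 0.0212 and 626 ± 9.25 TPM. Phosphofructokinase, the committed step, was led by Pfkl at 77.8 TPM in replicate 1 and at 81.1 in replicate 2. Pfkm, the muscle subunit, stood at 37.99 and 38.09 TPM, and Pfkp at 9.32 and 9.08 TPM. Pfkl exceeded Pfkm by 1.06 ± 0.04 on the log2 scale (SD, n = 2).

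Aldoa is transcribed from more than 1 start, and the promoter windows of both main starts are shown because the levels of their transcripts differed. Aldoa-201 held 476 TPM in replicate 1 and 413 TPM in replicate 2, or 82.0% and 81.8% of the gene. Aldoa-203, whose start lies 1193 bases upstream and which holds the same 1092 coding bases, held 58.7 TPM in replicate 1 and 60.9 TPM in replicate 2, or 10.1% and 12.1%. Both libraries thus put the downstream start ahead. The windows below run from 250 bases before to 50 after each start (RefSeq, GRCm38.p6, minus strand, chr7:126799205-126799504 for Aldoa-201 and chr7:126800398-126800697 for Aldoa-203), with matches to ACGTG on either strand in capitals.
Aldoa-201 start: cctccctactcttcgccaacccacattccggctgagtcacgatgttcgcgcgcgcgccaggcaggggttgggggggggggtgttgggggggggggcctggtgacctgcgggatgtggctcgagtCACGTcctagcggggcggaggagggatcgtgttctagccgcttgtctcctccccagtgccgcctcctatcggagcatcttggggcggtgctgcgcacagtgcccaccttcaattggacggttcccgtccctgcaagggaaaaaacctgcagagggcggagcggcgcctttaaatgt
Aldoa-203 start: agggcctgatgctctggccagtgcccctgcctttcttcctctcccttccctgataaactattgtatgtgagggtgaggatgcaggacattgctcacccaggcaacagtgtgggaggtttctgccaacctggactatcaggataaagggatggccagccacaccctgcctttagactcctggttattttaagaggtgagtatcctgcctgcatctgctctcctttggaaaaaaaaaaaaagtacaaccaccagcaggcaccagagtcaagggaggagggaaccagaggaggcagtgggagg
The Aldoa-201 window held 24 CpG dinucleotides and 65.7% G and C, and the Aldoa-203 window held 0 and 52.7%, where the medians over 32817 RefSeq windows were 7 and 52.7%. The 10 genes had 17 windows in that table. ACGTG, a core form of the motif bound by hypoxia-inducible factors, was found in 9 of the 17 windows, from every gene of the 10 but Eno1 and Ldhb, and in 19.6% of all windows. The 9 include overlapping Aldoa windows (chr7:126799205-126799504 and chr7:126799129-126799428) that share the same site. For Pkm, the window with the motif (chr9:59656977-59657276) lies downstream of the starts of both quantified transcripts, Pkm-201 and Pkm-202. The Pkm window that holds those starts (chr9:59656326-59656625) had 0 matches. ACGTG holds a CpG, and the windows compared were not matched for CpG content. The motif CACGTG, which contains it and is bound by Myc among others, was found in 1 of the 17 windows, that of the upstream Ldha start, and in 7.15% of all windows. TATAAA was found in 1 of the 17, that of Slc2a1, and in 13.6% of all windows, on either strand in each case. These are matches of letters and say nothing of binding. The genes of these factors were measured too: Hif1a averaged 89.0 ± 4.22 TPM, its partner Arnt 31.6 ± 3.69, Epas1 6.58 ± 0.233, Myc 60.5 ± 9.33 and Mycn 23.3 ± 2.55 TPM (SD, n = 2).

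**Figure D2:**
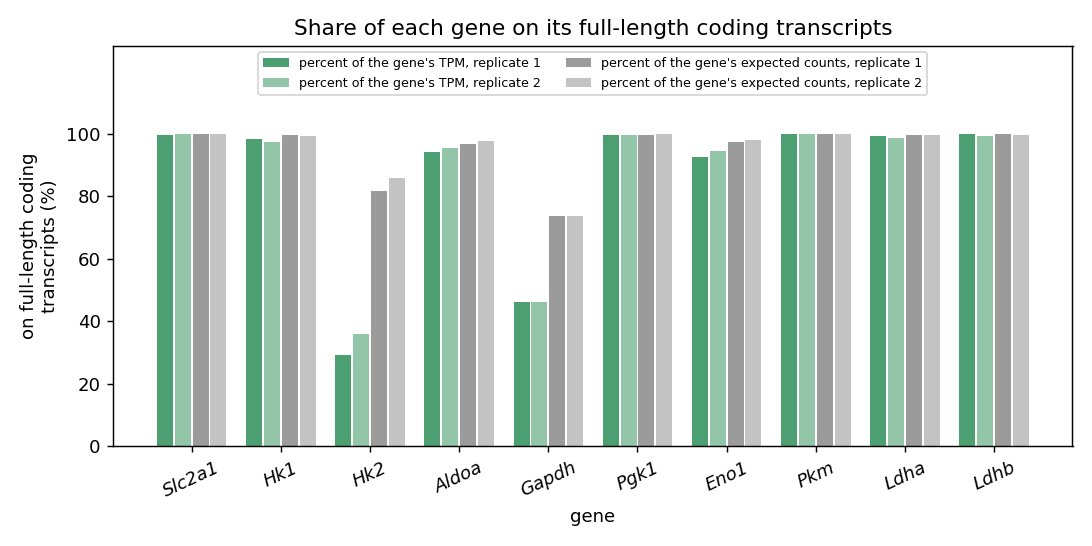
Percent of each gene held by its full-length coding transcripts, as a share of its TPM (green) and of its expected counts (grey), in replicate 1 (darker bars) and replicate 2 (lighter bars). Gapdh and Hk2 stand below 50% of TPM in both libraries but above 70% of counts, while the other 8 genes are above 90% on both measures.

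Gapdh, which oxidises glyceraldehyde phosphate and makes NADH, opened the lower steps with the highest gene level (chromosome 6, 125161715 to 125166467, minus strand). It stood at 1315 TPM in replicate 1 and at 1281 in replicate 2 (1298 ± 24.2, SD, n = 2). More than 50% of this again lay on a short transcript: Gapdh-208, a processed transcript of 483 nt (chromosome 6, 125162871 to 125165590), held 692 TPM in replicate 1 and 670 TPM in replicate 2. That was 52.6% and 52.3% of the gene's TPM but 24.9% and 24.6% of its counts. All 483 of its bases lie in exons of the coding transcript Gapdh-203, 426 of them in coding sequence and 57 in untranslated sequence, and 1 of its 3 exon junctions is in no full-length coding transcript. Reads inside the shared exons match both transcripts, and their split is an estimate.

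On full-length coding transcripts alone, Gapdh stood at 605 TPM in replicate 1 and at 593 in replicate 2 (599 ± 8.52, SD, n = 2). It then took position 4 of the 10 genes, behind Ldha at 1159 ± 77.6, Eno1 at 936 ± 8.22 and Pkm at 782 ± 19.1 TPM. This leaves out the counts given to Gapdh-208, 24.9% of the gene's in replicate 1 and 24.6% in replicate 2. The level and the position behind Pkm therefore depend on that estimated split, which the SD does not cover. Gapdh-203 carried most of the full-length level, with 520 TPM in replicate 1 and 503 TPM in replicate 2. Gapdh-201, which starts farther upstream, was given 83.6 TPM in replicate 1 and 89.0 TPM in replicate 2, though its deposited credibility interval ran from 1.59 to 105.8 TPM in replicate 1 and from 8.46 to 80.2 TPM in replicate 2. Gapdh-202, which differs from it by 1 base in length, was given 1.67 TPM in replicate 1 but had a posterior mean of 42.4 TPM, so the split between them was poorly resolved. The posterior SD of the gene's count was 0.302% of it in replicate 1 and 0.308% in replicate 2. Among the 10 genes a transcript that is not full-length coding led at Gapdh and Hk2. Of 13361 protein-coding genes at a mean of 1 TPM or more, 1015 (7.60%) led with such a transcript in both libraries, and 1528 (11.4%) had less than 50% of their TPM on full-length coding transcripts.

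Gapdh also had the most near-copies of the 10 genes. Of 160 annotated pseudogenes alike in at least 90% of 200 or more aligned bases, 144 were in the tables, 23 of these were listed at 0 in both libraries, and 16 reached 1 TPM in both. Their sum was 91.7 TPM in replicate 1 and 86.2 TPM in replicate 2, or 7.36% and 7.12% of the counts of gene and pseudogenes together. The highest were Gm14760 at 9.26 TPM in replicate 1 and at 12.4 in replicate 2, Gm13394 at 7.28 and 10.1 TPM, and Gm10359 at 9.17 and 5.23 TPM. The first pair was higher in replicate 2 and the last in replicate 1, and each is at least 99.9% identical to Gapdh over its aligned bases, so the values of single copies are uncertain. The gene Iffo1 overlaps Gapdh on the opposite strand and stood at 26.6 TPM in replicate 1 and at 19.9 in replicate 2. Because the libraries' strand was not given in the sources used here, reads of the overlap cannot be assigned. The sperm isozyme gene Gapdhs had 2 counts in replicate 1 and 9 in replicate 2.

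Pgk1 makes the first ATP of the pathway and lies on the X chromosome (106187100 to 106203699, plus strand). It stood at 236 TPM in replicate 1 and at 225 in replicate 2 (231 ± 7.83, SD, n = 2), with 99.5% of it on the coding transcript Pgk1-201 in both. Its copy Pgk1-rs7 on chromosome 12, typed as a processed pseudogene and identical over 1255 aligned bases, was given 33.9 TPM in replicate 1 and 29.5 TPM in replicate 2. That was 11.9% and 11.0% of the counts of gene and copies together, and the deposited posterior SD of the Pgk1 count was 1.43% of it in replicate 1 and 1.22% in replicate 2, the highest of the 10 genes. The testis gene Pgk2 had 0 counts in both libraries, so that Pgk1 was higher by at least 2702-fold in replicate 1, and by at least 2404-fold in replicate 2, against a floor of 3 counts in each library.

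Next in the pathway, Pgam1 averaged 409 ± 9.82 TPM and the muscle isozyme gene Pgam2 58.7 ± 13.0 TPM (SD, n = 2). Eno1, which encodes the enolase of most tissues (chromosome 4, 150236721 to 150248879, plus strand), stood at 1005 TPM in replicate 1 and at 997 in replicate 2 (1001 ± 6.05, SD, n = 2). Its coding transcript Eno1-202 held 91.8% in replicate 1 and 93.7% in replicate 2. The incomplete Eno1-205 held 55.9 TPM in replicate 1 and 31.0 TPM in replicate 2, a log2 ratio of 0.85, and 2 of its 6 junctions are in no full-length coding transcript. The pseudogene Gm4735, 99.6% identical over 1302 bases, was given 24.1 TPM in replicate 1 and 24.4 TPM in replicate 2.

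The muscle enolase gene Eno3 stood at 68.8 TPM in replicate 1 and at 46.0 in replicate 2, and Eno1 exceeded it by 3.87 on the log2 scale in replicate 1 and by 4.44 in replicate 2. Pgam1 likewise exceeded Pgam2 by 2.61 in replicate 1 and 3.02 in replicate 2. Eno3 and Pgam2 were both higher in replicate 1, as were 12 of 12 skeletal muscle markers, with log2 ratios between 0.18 for Myod1 and 1.26 for Ckm. Other genes typed above as of muscle were not: Pfkm stood at 37.99 TPM in replicate 1 and at 38.09 in replicate 2. Slc2a4 stood at 14.7 TPM in replicate 1 and at 15.9 in replicate 2. The part of muscle content in these ratios was not tested. The neuronal enolase gene Eno2 had 4.62 TPM in replicate 1 and 7.73 TPM in replicate 2, and Eno1 exceeded it by 7.36 ± 0.53 on the log2 scale (SD, n = 2). On full-length coding transcripts Eno2 stood at 1.36 TPM in replicate 1 and at 1.92 in replicate 2. The 5 neuron markers summed to 10.9 TPM in replicate 1 and 10.6 TPM in replicate 2, but went both ways. In the same order, Stmn2 stood at 6.96 and 5.62 TPM and Rbfox3 at 0.34 and 0.20. Tubb3 stood at 2.61 and 2.84 TPM, Syt1 at 0.87 and 1.49 and Snap25 at 0.16 and 0.49. Their part in the Eno2 levels was not tested.

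**Figure D3:**
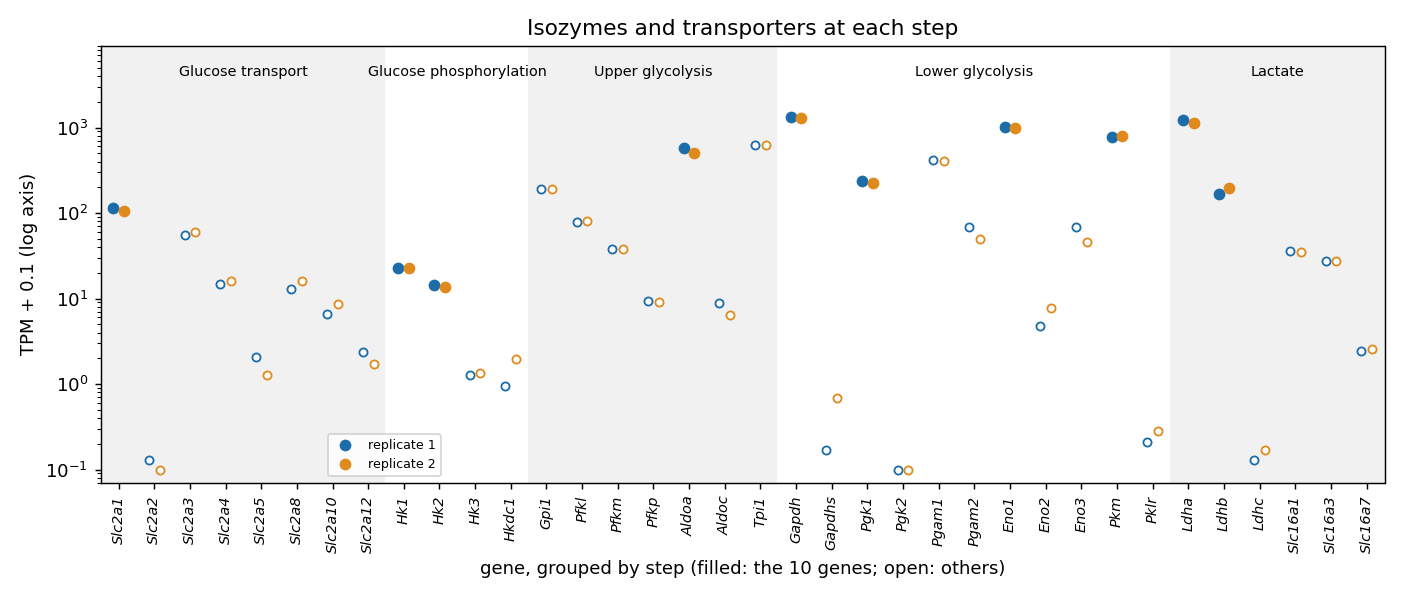
TPM + 0.1 (log axis) of 36 genes of the pathway by step, with the 10 genes filled and the other 26 open, in replicate 1 (blue) and replicate 2 (orange). In both libraries Aldoa lies above Aldoc, Eno1 above Eno3 and Ldha above Ldhb, and the testis isozymes Gapdhs, Pgk2 and Ldhc lie below 1 TPM.

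Pkm encodes pyruvate kinase, the last step, and makes both of its forms from 1 gene by including either of a pair of mutually exclusive exons (chromosome 9, 59656368 to 59679375, plus strand). The M2 form carries the downstream exon and is typical of embryonic and dividing cells, and the M1 form carries the upstream exon and is typical of adult muscle, heart and brain. Pkm as a whole stood at 769 TPM in replicate 1 and at 796 in replicate 2 (782 ± 19.1, SD, n = 2). Nearly all pyruvate kinase RNA was of this gene, since the liver and red cell gene Pklr was at 0.11 TPM in replicate 1 and 0.18 in replicate 2.

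The exons are the only stretch in which the M2 and M1 proteins differ, and they are shown as the letters that separate the forms in the reads. They are exon 10 for M2 (mm10, chr9:59675568-59675734, plus strand) and exon 9 for M1 (chr9:59675029-59675195, plus strand), with capitals at the bases that differ between them.
M2 exon: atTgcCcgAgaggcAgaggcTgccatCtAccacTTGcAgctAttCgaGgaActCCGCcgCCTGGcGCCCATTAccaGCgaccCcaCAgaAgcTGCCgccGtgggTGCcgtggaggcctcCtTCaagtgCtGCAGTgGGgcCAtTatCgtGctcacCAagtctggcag
M1 exon: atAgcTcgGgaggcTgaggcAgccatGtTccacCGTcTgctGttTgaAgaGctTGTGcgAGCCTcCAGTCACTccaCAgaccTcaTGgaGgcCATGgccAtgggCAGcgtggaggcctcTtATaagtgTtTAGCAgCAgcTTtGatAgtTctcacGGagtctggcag
Both are 167 bases long, 64 positions differ and 103 (61.7%) are the same. The longest run of bases that they share is 12. Differences were densest in the middle, with 17 in the first 55 bases, 29 in the next 55 and 18 in the last 57. The M2 exon was 62.9% G and C and the M1 exon 56.3%.

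The M2 form prevailed in both libraries. It held 707 TPM in replicate 1 and 744 TPM in replicate 2, and the M1 form 61.9 TPM in replicate 1 and 52.0 TPM in replicate 2. M2 was thus 91.9% of the sum in replicate 1 and 93.5% in replicate 2 (92.7 ± 1.07%, SD, n = 2), or 11.4 and 14.3 times M1. Each form is 1 transcript in the tables, Pkm-201 for M2 and Pkm-202 for M1, both of 2432 nt, so a difference in length did not enter the ratio. The forms leaned in opposite directions between the libraries, M2 by −0.07 and M1 by 0.25 on the log2 scale of replicate 1 over replicate 2. Summed skeletal muscle markers were 3880 TPM in replicate 1 and 2627 TPM in replicate 2, and their part in the M1 level was not tested.

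The RNA of 5 genes was examined whose proteins are known from human and mouse cell lines to affect this choice. Ptbp1, Hnrnpa1 and Hnrnpa2b1, whose products repress the M1 exon, averaged 203 ± 10.4, 534 ± 35.3 and 405 ± 28.2 TPM (SD, n = 2). Srsf3, whose product favours the M2 exon, averaged 614 ± 4.79 TPM, of which 218 TPM in replicate 1 and 224 TPM in replicate 2 lay on full-length coding transcripts. Rbm4, whose product favours the M1 exon, averaged 55.2 ± 2.27 TPM. Their log2 ratios of replicate 1 over replicate 2 lay between −0.14 for Hnrnpa2b1 and −0.02 for Srsf3.

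**Figure D4:**
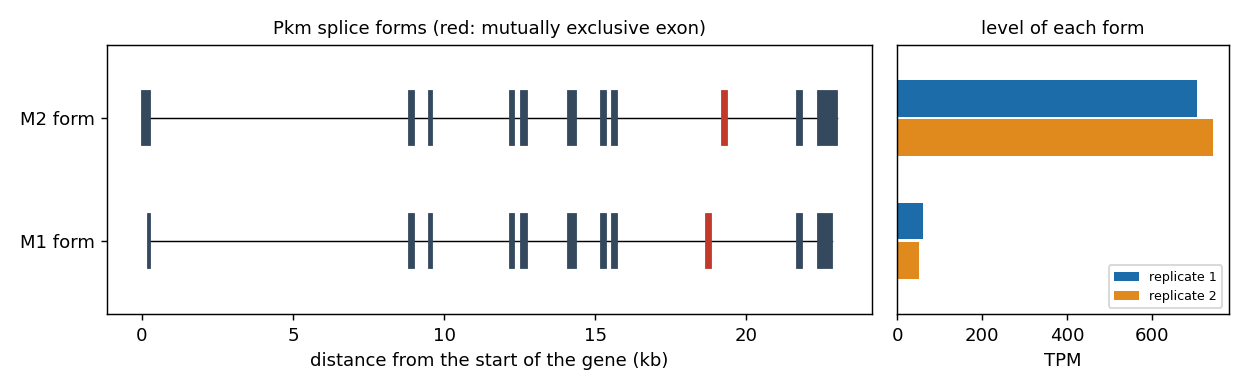
Left, exons of the M2 and M1 forms of Pkm to scale along the gene (kb from its start, reference annotation), with the mutually exclusive exon of each in red; right, TPM of each form in replicate 1 (blue) and replicate 2 (orange). M2 stands at 707 and 744 TPM and M1 at 61.9 and 52.0 TPM. The M1 transcript drawn is 2041 nt long, against 2432 nt as quantified, and its outer exons are shorter than those drawn for M2.

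Lactate dehydrogenase was mostly of the A type. Ldha (chromosome 7, 46841475 to 46855627, plus strand), whose subunit favours the turning of pyruvate into lactate, stood at 1224 TPM in replicate 1 and at 1121 in replicate 2 (1172 ± 73.1, SD, n = 2). Ldhb (chromosome 6, 142490249 to 142507957, minus strand), the subunit typical of heart, stood at 168 TPM in replicate 1 and at 196 in replicate 2 (182.0 ± 19.2, SD, n = 2). Their leading transcripts held nearly all of each gene, 99.0% in replicate 1 and 98.3% in replicate 2 on Ldha-202, and 99.85% and 99.2% on Ldhb-201. Ldha exceeded Ldhb by 2.69 ± 0.24 on the log2 scale (6.45-fold, SD, n = 2), and the fold was 7.26 in replicate 1 and 5.73 in replicate 2. Ldha was higher in replicate 1 and Ldhb lower, so both genes widened the spread of the ratio. The testis gene Ldhc had 1 count in each library. The 9 Ldha pseudogenes in the tables summed to 2.62 TPM in replicate 1 and 3.69 TPM in replicate 2, led by Ldha-ps2 at 1.75 and 2.24 TPM. The 4 of Pkm summed to 0.20 and 0.12 TPM, the Ldhb pseudogene Gm5514 stood at 1.43 and 0.95 TPM and the Aldoa pseudogene Gm8659 at 0.04 and 0 TPM, and Slc2a1, Hk1 and Hk2 had no copy of that likeness.

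Lactate leaves or enters cells through monocarboxylate transporters. Slc16a1, which encodes the broadly expressed MCT1, stood at 35.8 TPM in replicate 1 and at 34.6 in replicate 2. Slc16a3, which encodes MCT4 of strongly glycolytic cells, stood at 27.7 TPM in replicate 1 and at 27.6 in replicate 2. Slc16a1 exceeded Slc16a3 by 0.35 ± 0.03 on the log2 scale (1.27-fold, SD, n = 2), and Slc16a7, which encodes MCT2, averaged 2.39 ± 0.106 TPM (SD, n = 2). Among genes that steer pyruvate toward or away from mitochondria, the pyruvate dehydrogenase genes Pdha1 and Pdhb averaged 91.7 ± 1.20 and 129 ± 1.94 TPM. By gene TPM, the kinase genes that switch this enzyme off were led by Pdk1 at 56.4 ± 3.74 TPM and Pdk3 at 46.0 ± 3.47 TPM. Pdk2 at 28.3 ± 2.14 and Pdk4 at 1.93 ± 0.559 TPM followed (SD, n = 2). On full-length coding transcripts alone, Pdk1 stood at 20.94 TPM in replicate 1 and at 21.13 in replicate 2. It then lay below Pdk3, at 43.32 and 48.09 TPM, and Pdk2, at 24.78 and 28.42 TPM, in the same order. The Pfkfb genes, whose products set the activator of phosphofructokinase, averaged below 10 TPM, with Pfkfb3 at 8.86 ± 0.318, Pfkfb2 at 5.995 ± 0.530, Pfkfb4 at 4.57 ± 0.120 and Pfkfb1 at 3.91 ± 0.516 TPM. Tigar, whose product lowers the same activator, averaged 1.52 ± 0.163 TPM (SD, n = 2).

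Between the libraries the 10 genes differed little. With a difference counted where the log2 ratio of replicate 1 over replicate 2, on TPM + 0.1, was past 0.32 in either direction, 0 of the 10 genes were past it, where 19.8% of 15307 genes at a mean of 1 TPM or more were, and 3.57% of 3139 genes at 50 TPM or more. No test could be made with 1 library on each side, and 8 of the 10 genes average above 50 TPM, so the closer background for them is the second, and the count of 0 lies near it. Their log2 ratios ran from −0.22 for Ldhb to 0.20 for Aldoa with a median of 0.05, and the median of the 15307 genes was −0.07. Ldha stood at 0.13, Slc2a1 at 0.10, Hk2 at 0.09, Pgk1 at 0.07, Gapdh at 0.04, Eno1 at 0.01, Hk1 at 0.00 and Pkm at −0.05. Under 8 other scalings or settings 0 of the 10 genes passed the fold as well. The share of all genes past it ran from 14.7% of 15307 (pseudocount of 1 TPM) to 22.6% of 43346 (no minimum TPM). These are not 8 separate checks. Dropping the minimum leaves the ratios of the 10 genes unchanged, and the scalings of expected counts differ from each other by a constant. Slc2a1, Aldoa, Gapdh, Pgk1 and Ldha stayed above 0 and Ldhb below 0 under all 8 settings. Hk1 and Eno1, whose ratios are near 0, changed sign under at least 1 but stayed above the median of all genes under each. Pkm stood at −0.05 as reported and at 0.03 with edgeR's TMM scaling, a setting that uses expected counts in place of TPM. With the median of all genes taken off, Pkm stood at 0.02 and 0.03 under these. It stood at −0.02 on full-length coding transcripts, and at −0.05 where that median was taken without a minimum TPM. Hk2 stood at 0.09 as reported and at −0.20 on full-length coding transcripts, or at 0.16 and −0.17 with the median of all genes taken off. On expected counts Hk2 was below 0 as well, at −0.06 by TMM, −0.05 by DESeq2, −0.09 by total counts and −0.12 by spike-ins. With the median taken off it stood at −0.06 under each of these.

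Among 26 other genes of transport, glycolysis and lactate, 20 reached 1 TPM in both libraries and 21 averaged 1 TPM or more. Of these 21, 5 were past the fold with the higher level in replicate 1 and 3 with the lower, where 7.44% and 12.3% of the 15307 genes were, and 13 were within it. The 5 were Pgam2, Eno3, Aldoc, Slc2a5 and Slc2a12, with log2 ratios of 0.46, 0.58, 0.45, 0.71 and 0.45. The 3 were Eno2, Hkdc1 and Slc2a10, with −0.73, −1.06 and −0.36. Except for Pgam2 and Eno3 these averaged below 10 TPM.

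**Figure D5:**
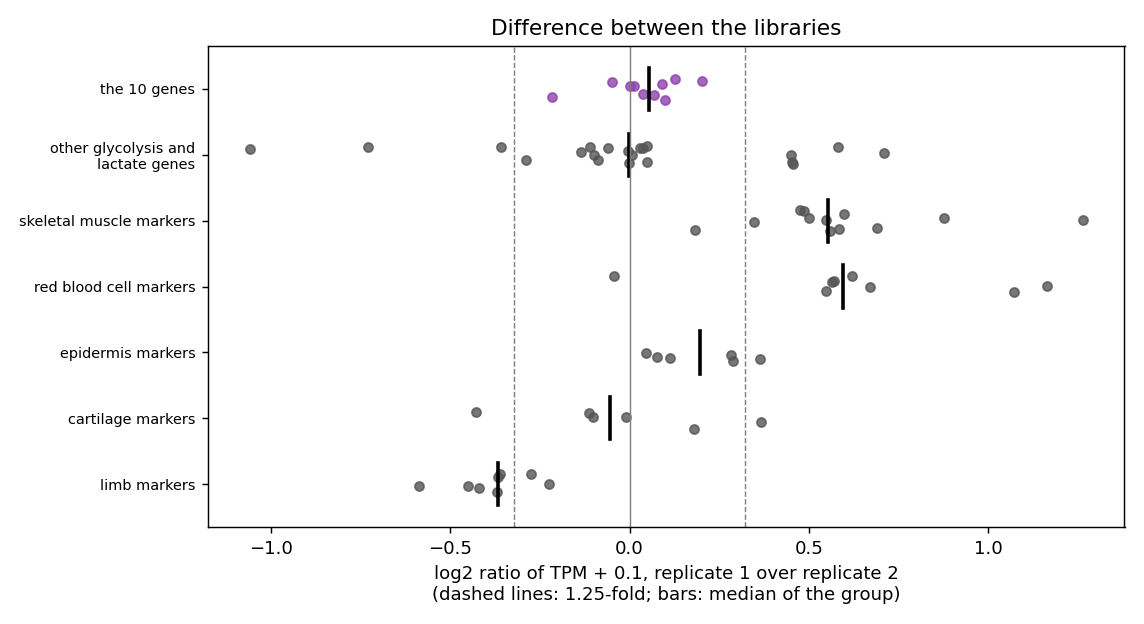
Log2 ratio of TPM + 0.1, replicate 1 over replicate 2, of the 10 genes (purple), the other glycolysis and lactate genes and the marker lists (grey), for genes at a mean of 1 TPM or more; black bars are medians and dashed lines mark 0.32 on either side of 0. The 10 genes lie between −0.22 and 0.20, while skeletal muscle markers have a median of 0.55 and limb markers of −0.37.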

How the data were processed

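Total RNA of embryonic limb was measured in 2 libraries of 1 group. The build was mm10 with annotation M4 and values came from alignments to the transcriptome, per the file headers and notes of the deposit; neither the program nor the strand was given in the sources used here. Expected counts, as the authors deposited them, are estimates and need not be whole. TPM, also as the authors deposited it, sums to 1 common total per library with spike-ins in it, and posterior mean TPM served as an alternative. The percent of a gene's TPM on each transcript was deposited by the authors, as were interval bounds of the TPM signal, at a level that was not given in the sources used here, and a posterior SD of the count. In each library the deposited TPM lay above its own interval for 5 of the 10 genes, below it for 1 and within it for 4. Spike-ins were 5.29% of replicate 1's counts and 5.20% of replicate 2's. Because nothing in the labels sets the samples apart beyond replicate number and collection day, each SD measures the spread between these samples, which may be technical.

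Symbols, types and positions came from GENCODE M21 on GRCm38, which matched 42462 of 43346 identifiers, and 71 of the 78 transcripts of the 10 genes had the same length there. A full-length coding transcript is a protein-coding one with a complete coding sequence. Ratios used log2(TPM + 0.1), which understates differences of low genes. Copies were found with BLAST 2.17.0. Python 3.11.15 was used, and R 4.3.3 for scaling alternatives on rounded counts, by edgeR 4.0.16 or by DESeq2 1.42.0. The fold rule was tried on simulated counts with counting error alone, by a ratio of scaled counts and not of TPM + 0.1. The isozyme ratios were not tried on simulated data. By rule the 10 genes, their transcripts at 5% or more and the ratio genes were named, and list genes averaging 1 TPM or more or listed at 0, and up to the 3 highest pseudogenes of a gene, could be. Others, such as Slc2a2, Gapdhs, Ldhc, Snap25 and Rbfox3 at very low levels, Gapdh-202 and Iffo1, were named after their values were seen. No gene was named for a like pattern, since 2 libraries of 1 group give none. The pathway lists were used without 2 genes that are not reported here. Members and lists were chosen with earlier results of these data known. Floors cover counting error only.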

Additional observations from a re-analysis of the deposited data

How the results depend on the processing

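No comparison between conditions exists, and limits come from 2 libraries and from reads shared between transcripts and copies. No paired analysis was possible because both libraries belong to 1 group. Each ratio below is on the log2 scale. Counting full-length coding transcripts alone was chosen after seeing the data. It gave a summed level of 4536 TPM against 5355, 2.28 for Hk1 over Hk2 against 0.70, 6.55 for Aldoa over Aldoc against 6.16, 9.09 for Eno1 over Eno2 against 7.36, 0.53 for Slc16a1 over Slc16a3 against 0.35, and 12.06 for Pkm over Pklr against 11.66. Posterior mean TPM gave 0.81 for Hk1 over Hk2, 5.97 for Aldoa over Aldoc, 0.31 for Slc16a1 over Slc16a3, 9.88 for Pkm over Pklr, and 10.75 for Pgk1 over Pgk2 against 11.17. A pseudocount of 1 TPM gave 9.42 for Pkm over Pklr, 9.96 for Gapdh over Gapdhs against 11.90, and 7.86 for Pgk1 over Pgk2. In these last 3 ratios the lower gene is near 0, so the pseudocount sets their size. By posterior mean TPM, Pklr stood at 0.66 TPM in replicate 1 and at 0.76 in replicate 2, and Pgk2 at 0.03 in both. Full-length coding transcripts held 29.1% of Hk2's TPM in replicate 1 and 35.8% in replicate 2. In the same order they held 29.4% and 24.8% for Eno2, 62.9% and 83.0% for Aldoc, and 85.2% and 91.1% for Slc16a3. Beyond these values, the causes of the shifts under the other settings were not tested. No ratio reversed under any alternative run. The Pkm M2 share was 92.7% as reported and by posterior mean TPM, and its other alternatives bear on nothing, since each form is 1 transcript and both have the same length. With 2 libraries, leaving 1 out moves every mean by the same part of its SD, so it says nothing about stability.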
